A study of Komagataella pastoris with 4 samples.

Results

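The rows examined are 4 of the 5427 features in a table of RNA-seq read counts from Pichia pastoris (labelled Komagataella pastoris), a yeast that can live on methanol. They are the row for the histone acetyltransferase Gcn5 (gene3103) and 3 rows for subunits of SAGA, the transcriptional coactivator complex in which Gcn5 works. These are SAGA associated factor 29 (Sgf29, gene804), the coactivator HFI1/ADA1 (gene1593) and a SAGA subunit that the related complex SLIK lacks (gene1213). The 4 rows were chosen by measured values of these same libraries. gene3103 is the deleted gene, gene804 and gene1213 were at least 2-fold lower in the library of the Gcn5 deletion strain, and gene1593 was low in that library alone. Their ratios in that library are therefore given as a description, with no test.

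The libraries came from 4 strains, each a histidine auxotroph, kept for 14 h in a minimal medium whose carbon source was methanol. The strain GS115 is the wild type and carries no resistance marker. The other 3 carry Zeocin resistance and are labelled as deletion mutants. Dmxr1 lacks Mxr1, a zinc-finger activator of methanol genes, Dgal83 lacks Gal83, a regulatory subunit of the Snf1 kinase, and Dgcn5 lacks Gcn5, each according to its label. There was 1 library per strain and the labels name no clone or culture, so differences have no replicate check and no p-value is given. In bulk RNA a change per cell and a change in the mix of cells cannot be told apart.

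Levels are CPM, counts scaled to a common library size, after TMM scaling, which trims extreme ratios before it sets the library sizes, and differences are log2 ratios to the wild type. Square brackets hold the 95% counting interval, which covers counting error only. A row was called lower or higher when it differed by at least 2-fold, a log2 ratio of 1 in size, with an interval that excluded equality. Total counts ran from 30582006 to 48539082 per library, and the median ratio of all 5420 rows that passed the filter on low counts was -0.01, 0.01 and -0.01 in Dmxr1, Dgal83 and Dgcn5. All 4 rows passed that filter in every setting used. The row described as a possible beta-subunit of Snf1 kinase (gene1360) had 8 counts in the Dgal83 library and 5215 in the wild type, while a second row, described as GAL83 (gene161), had 5513 and 13620. With 0 rows described as Mxr1, the label of the Dmxr1 library was not checked, so any direction read from it depends on that label.

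SAGA is a large complex that activators bring to gene promoters. One of its modules acetylates histone H3 through Gcn5, held there by the adaptors Ada2 and Ada3 and by Sgf29, a reader of methylated histone H3. Another module removes ubiquitin from histone H2B, one more delivers the TATA-box binding protein (TBP), and a core built on histone-fold proteins, Hfi1/Ada1 among them, holds the modules together. Part of the core is shared with the general factor TFIID. These roles are known from Saccharomyces cerevisiae, and rows were named from the table's descriptions, in which gene3103 is given by its activity, as the acetyltransferase of histones H2B and H3, and is taken here as Gcn5.

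The catalytic subunit was read first. For Gcn5 (gene3103) the counts were 2570 in GS115, 1840 in Dmxr1, 3060 in Dgal83 and 3 in Dgcn5. In CPM these were 48.1 [46.3 to 50.0], 61.6 [58.8 to 64.5], 82.9 [80.0 to 85.9] and 0.112 [0.023 to 0.326]. The library labelled as lacking Gcn5 was thus at 0.232% of the wild-type level, a log2 ratio of -8.53 [-11.03 to -7.20]. No row of that library had fewer counts, the lowest count there being 3, and no other row had so low a ratio to the wild type.

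In the other 2 deletion libraries Gcn5 was above the wild type, by less than 2-fold. The log2 ratio was 0.36 [0.27 to 0.44] in the Dmxr1 and 0.79 [0.71 to 0.86] in the Dgal83 library, a 1.28-fold and a 1.72-fold higher level. With libraries scaled by total counts the first of these was 0.00 and the second 0.92. In order of level, Dgal83 stood first, then Dmxr1, then GS115, and each step of this order exceeded counting error but was under 2-fold.

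Sgf29 (gene804), which sits beside Gcn5 in the acetyltransferase module, had 2869 counts in GS115, 1002 in Dmxr1, 1699 in Dgal83 and 711 in Dgcn5. Its level was 53.7, 33.5, 46.0 and 26.5 CPM in the same order, so all 3 deletion libraries lay below the wild type. The log2 ratio was -1.02 [-1.14 to -0.90] in the Dgcn5 library, -0.68 [-0.78 to -0.58] in the Dmxr1 and -0.22 [-0.31 to -0.14] in the Dgal83 library. The interval of the first holds the 2-fold limit, so counting error does not settle on which side of it the row lies. From the top the order was GS115, Dgal83, Dmxr1 and Dgcn5, with steps of 1.17-fold, 1.37-fold and 1.27-fold that each exceeded counting error. With total counts the Dmxr1 ratio was -1.03, past the limit, and the Dgcn5 ratio was -1.35.

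HFI1/ADA1 of the structural core (gene1593) showed a different order. It had 2275, 1687, 1731 and 497 counts in the GS115, Dmxr1, Dgal83 and Dgcn5 libraries. The levels were 42.6 [40.9 to 44.4], 56.5 [53.8 to 59.2], 46.9 [44.7 to 49.2] and 18.5 [16.9 to 20.2] CPM. The Dgcn5 library stood alone at the bottom, 2.3-fold below the wild type, which was the lowest of the other 3. Those 3 lay within 1.33-fold of one another, with Dmxr1 1.2-fold above Dgal83 and Dgal83 1.1-fold above GS115. With total counts the order of Dmxr1 and Dgal83 was reversed, at log2 ratios to the wild type of 0.06 and 0.27.

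The log2 ratio of gene1593 to the wild type was -1.20 [-1.35 to -1.06] in the Dgcn5 library, with the whole interval past the 2-fold limit. In the Dmxr1 and Dgal83 libraries it was 0.41 [0.31 to 0.50] and 0.14 [0.05 to 0.23]. The row was chosen partly for this pattern, in which 1 library is at least 2-fold from each of the others and those are within 1.5-fold of one another. In the Dgcn5 library 12 rows, 0.221% of all, were low in this way, and 22 rows, 0.406%, were high.

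The next row in the table, gene1594, carries the same description, HFI1/ADA1. It had 1848, 776, 540 and 518 counts in the GS115, Dmxr1, Dgal83 and Dgcn5 libraries. Its log2 ratio was -0.41 [-0.54 to -0.29], -1.24 [-1.38 to -1.10] and -0.84 [-0.99 to -0.70] in the 3 deletion libraries in that order. It was thus lowest in the Dgal83 library, where gene1593 was close to the wild type.

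The share of the counts of both rows that fell in gene1593 was 55.2% [53.6 to 56.7] in the wild type and 49.0% [45.8 to 52.1] in the Dgcn5 library (exact binomial intervals). It was 68.5% [66.6 to 70.3] in the Dmxr1 and 76.2% [74.4 to 78.0] in the Dgal83 library. The counts of both rows together were at a log2 ratio of -1.03 [-1.13 to -0.93] in the Dgcn5 library, -0.33 [-0.40 to -0.25] in the Dgal83 and 0.09 [0.02 to 0.17] in the Dmxr1 library. Whether these rows are pieces of 1 gene or separate genes cannot be read from the table, and reads could have been divided between them, which leaves the value of either row alone uncertain.

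The SAGA subunit that SLIK lacks (gene1213) had the lowest ratio in the Dgcn5 library after Gcn5 among the 4 rows. The table gives it no gene name. In Saccharomyces cerevisiae the subunit known for this difference is Spt8, which contacts TBP. It had 5260 counts in GS115, 1968 in Dmxr1, 1432 in Dgal83 and 911 in Dgcn5.

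The level of gene1213 was 98.5 [95.9 to 101], 65.9 [63.0 to 68.9], 38.8 [36.8 to 40.9] and 33.9 [31.8 to 36.2] CPM in the GS115, Dmxr1, Dgal83 and Dgcn5 libraries. The wild type was the highest, and the Dgal83 and Dgcn5 libraries lay close together at the bottom. The steps from GS115 to Dmxr1 and from Dmxr1 to Dgal83 were 1.49-fold and 1.7-fold. Dgal83 and Dgcn5 differed by 1.14-fold, a log2 difference of -0.19 [-0.32 to -0.07]. Against the wild type its log2 ratio was -1.54 [-1.64 to -1.44] in the Dgcn5, -1.34 [-1.43 to -1.26] in the Dgal83 and -0.58 [-0.66 to -0.51] in the Dmxr1 library.

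**Figure D1:**
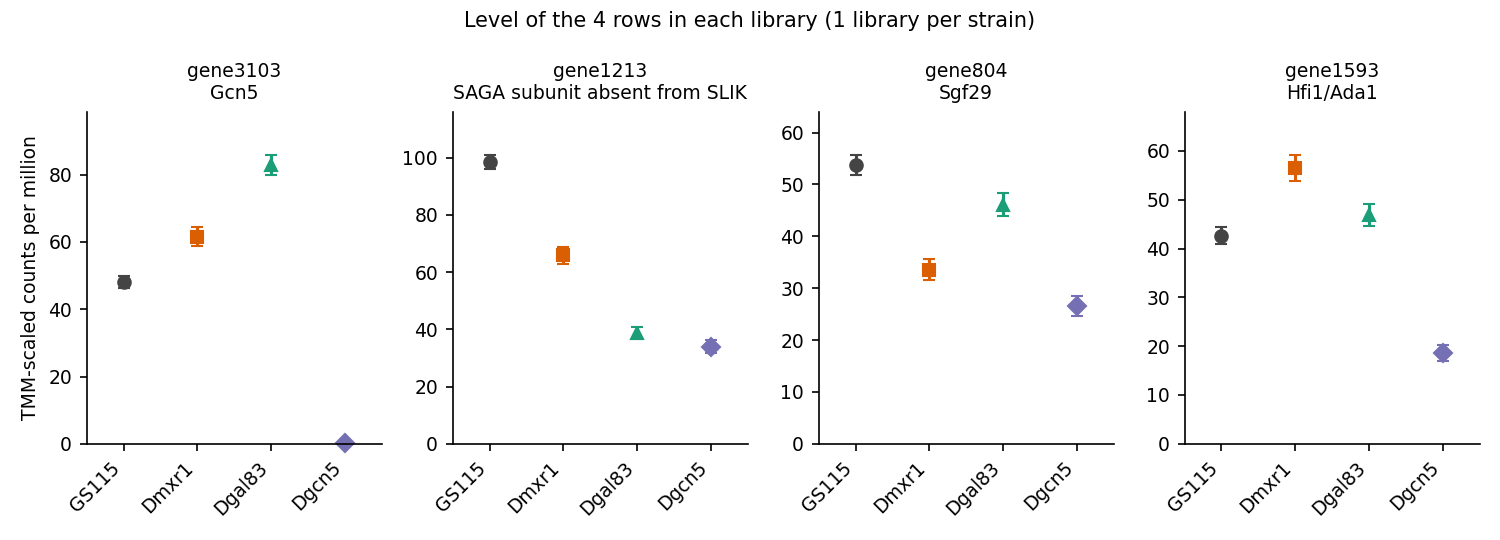
Level of each of the 4 rows, in TMM-scaled CPM on a linear axis from 0, in the 4 libraries. Points are single libraries and bars are 95% Poisson counting intervals. Gcn5 is at 0.112 in its deletion library, gene1593 is low there alone, and gene1213 is low in both the Dgal83 and the Dgcn5 library.

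Set against all rows, all 4 were called lower in the Dgcn5 library, where 5.04% of 5420 rows were lower and 4.06% higher. Since this contrast chose the rows, that count supports nothing. Of all rows, 81 had a ratio as low as that of gene1213, 169 as low as gene1593 and 257 as low as gene804, which places them in the lowest 1.49%, 3.12% and 4.74%. gene804 lay just inside the 2-fold limit at -1.02. The row of the SAGA list just outside it was gene4314 at -0.90.

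In the Dgal83 library 1 of the 4 rows, gene1213, was called lower and 0 were called higher, against 10.7% lower and 11% higher of all rows. In the Dmxr1 library 0 of the 4 were called, against 10.3% lower and 7.97% higher. The 3 comparisons share the wild-type library and are not independent of one another.

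The deletion libraries can also be set against one another without the wild type. Gcn5 is the deleted gene and gene1593 was chosen for lying at least 2-fold below every other library, so the calls of these rows follow from the choice and nothing is read from them. Against the Dmxr1 library these 2 of the 4 rows were called lower in the Dgcn5 library, as were 8.08% of all rows, with gene1593 at a log2 difference of -1.61 [-1.76 to -1.46]. For gene1213 this difference was -0.96 [-1.07 to -0.84] and for gene804 it was -0.34 [-0.48 to -0.20].

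Against the Dgal83 library Gcn5 and gene1593 were again the 2 called, as were 12.8% of all rows. Here gene1593 was at -1.34 [-1.49 to -1.20], gene804 at -0.80 [-0.93 to -0.67] and gene1213 at -0.19. With total counts gene804 was at -1.26, past the limit, and gene1213 at -0.66. The counts of gene1593 and gene1594 together were at -0.70 [-0.81 to -0.60] against the Dgal83 library, under 2-fold, and at -1.13 [-1.23 to -1.02] against the Dmxr1 library.

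**Figure D2:**
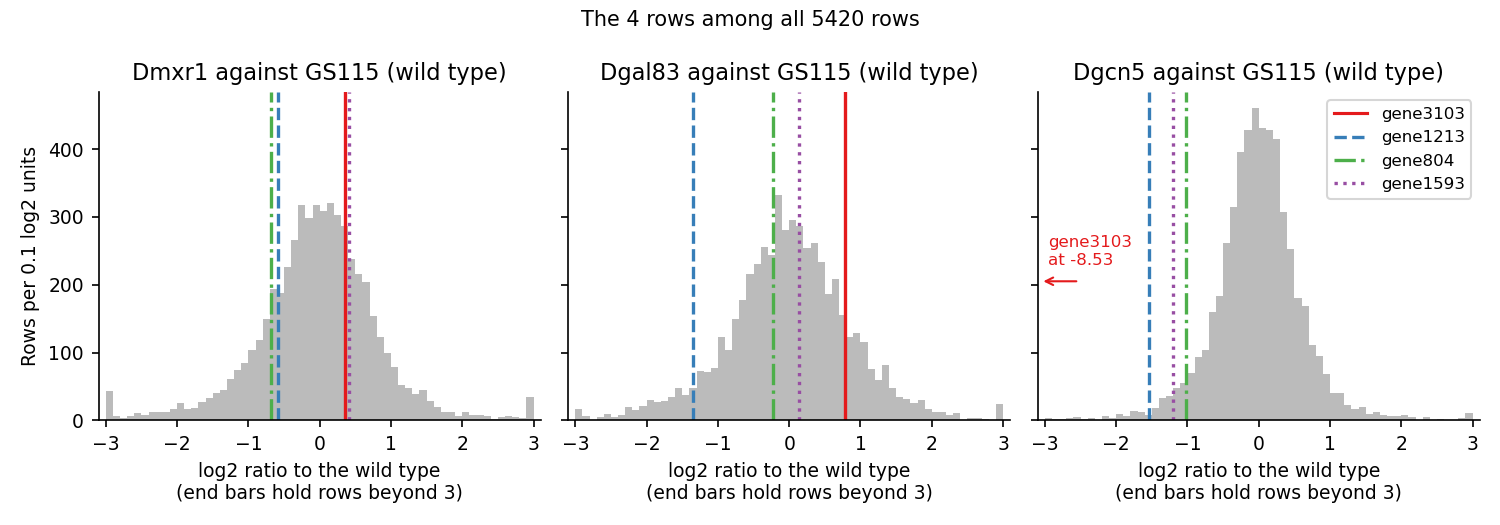
Distribution of the log2 ratio to the wild type over 5420 rows, in bins of 0.1 on the x axis and rows per bin on the y axis, for each deletion library. Vertical lines mark the 4 rows, and rows beyond 3 are gathered in the end bars. All 4 lie at or beyond -1.02 in the Dgcn5 library, with Gcn5 off the scale at -8.53, and they are spread over both sides of 0 in the other libraries.

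The rest of SAGA was taken from a list of 17 rows, found by words in the descriptions, which may miss subunits described in other words. No row of the list was described as the enzyme that removes ubiquitin. In the Dgcn5 library 4 of the 17 were called lower, the 4 rows above, and 0 higher. Of all rows, 5.04% were lower there and 4.06% higher. This contrast chose the 4 rows, so nothing is read from the split between them and the others. The other 13, left once those rows were taken out, held 0 calls, and their median log2 ratio was -0.12, beside -0.01 for all rows. Their range was from -0.90 to 0.70, and 7 of them were below 0. With total counts 6 of the 17 were called lower, gene4314 and gene1594 being added, where 10.8% of all rows were lower.

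In the acetyltransferase module, the row for a member of both ADA and SAGA (gene2193) had 6345, 4632, 4121 and 2551 counts in the GS115, Dmxr1, Dgal83 and Dgcn5 libraries. Its log2 ratio was 0.38, -0.09 and -0.32 in the deletion libraries, so the lowest was again the Dgcn5 library, by less than 2-fold. A potential component of the ADA complex, the smaller complex that shares Gcn5 (gene94), was at 0.24, 0.96 and 0.05.

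In the module that binds TBP, the second row (gene4314), described as a subunit of SAGA and SLIK that interacts with Spt15, the TBP of yeast, had 2016 counts in GS115 and 1102, 1237 and 543 in the Dmxr1, Dgal83 and Dgcn5 libraries. Its log2 ratio was -0.90 [-1.04 to -0.76] in the Dgcn5 library and -0.17 [-0.27 to -0.07] in the Dgal83 library. In the Dmxr1 library it was -0.03 [-0.14 to 0.07], an interval that holds equality. Both rows of this module were thus below the wild type in the Dgcn5 library. Since gene1213 was chosen by its value there, nothing is read from the pair. In the Dgal83 library gene1213 alone was called, where 10.7% of all rows were lower. With total counts gene4314 was past the limit in the Dgcn5 library, at -1.23.

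In the structural core, gene1593 was the 1 row of 7 called in the Dgcn5 library, where 5.04% of all rows were lower and 4.06% higher. That row was chosen for its low level in the Dgcn5 library, so nothing is read from this count. A row for a subunit needed for assembly of the complex (gene3575) was at a log2 ratio of -0.37 [-0.46 to -0.28] there and -0.79 [-0.88 to -0.70] in the Dgal83 library. The histone-fold subunits shared with TFIID were TFIID subunit 6 (gene416) at -0.33, a subunit named by its size (gene2906) at -0.20, subunit 10 (gene1008) at 0.19 and subunit 12 (gene2414) at 0.33 in the Dgcn5 library. These partners of the core lay on both sides of the wild type. With total counts the 6 core rows other than gene1593 were all at or below 0.00 there, and gene1594 was at -1.17.

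The deubiquitinase rows were highest in the Dgal83 library. SAGA-associated factor 11 (gene1945), which activates the ubiquitin protease of SAGA, had 615, 513, 1113 and 336 counts in the GS115, Dmxr1, Dgal83 and Dgcn5 libraries. SUS1 (gene2217), shared by this module and the mRNA export machinery, had 924, 935, 1662 and 756. Their log2 ratios were 1.39 [1.25 to 1.53] and 1.38 [1.26 to 1.5] in the Dgal83 library, the 2 higher calls of the list. In the Dgcn5 library they were 0.12 [-0.08 to 0.31] and 0.70 [0.56 to 0.84], and with total counts -0.21 and 0.37.

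The row described as transcription-associated protein 1 (gene1438), the name of the large subunit that activators bind, had 11079 counts in GS115 and 5367, 3226 and 6673 in the Dmxr1, Dgal83 and Dgcn5 libraries. It was at a log2 ratio of -1.25 [-1.30 to -1.19] in the Dgal83 library and 0.26 [0.22 to 0.30] in the Dgcn5 library. The latter was -0.07 with total counts. The 1 row left, a SAGA subunit with no module given (gene1528), was at 0.31, 0.06 and -0.12.

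In the Dgal83 library the list thus held 3 lower and 2 higher calls of 17, beside 10.7% lower and 11% higher of all rows, with a median log2 ratio of -0.09. In the Dmxr1 library it held 0 calls of 17, beside 10.3% lower and 7.97% higher of all rows. The median of the list there was 0.25, and the lowest row was gene804. Total counts lowered the ratios of that library, with a median of all rows at -0.36 in place of -0.01. The TMM-scaled median of the list was -0.32 in the Dgcn5 library, and -0.12 without the 4 rows chosen by their values there. With a limit of 1.5-fold, 2, 10 and 7 of the 17 rows were called in the Dmxr1, Dgal83 and Dgcn5 libraries, where 40.6%, 44.4% and 26.1% of all rows were. The 7 include the 4 rows chosen by their values in the Dgcn5 library, so nothing is read from that count.

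**Figure D3:**
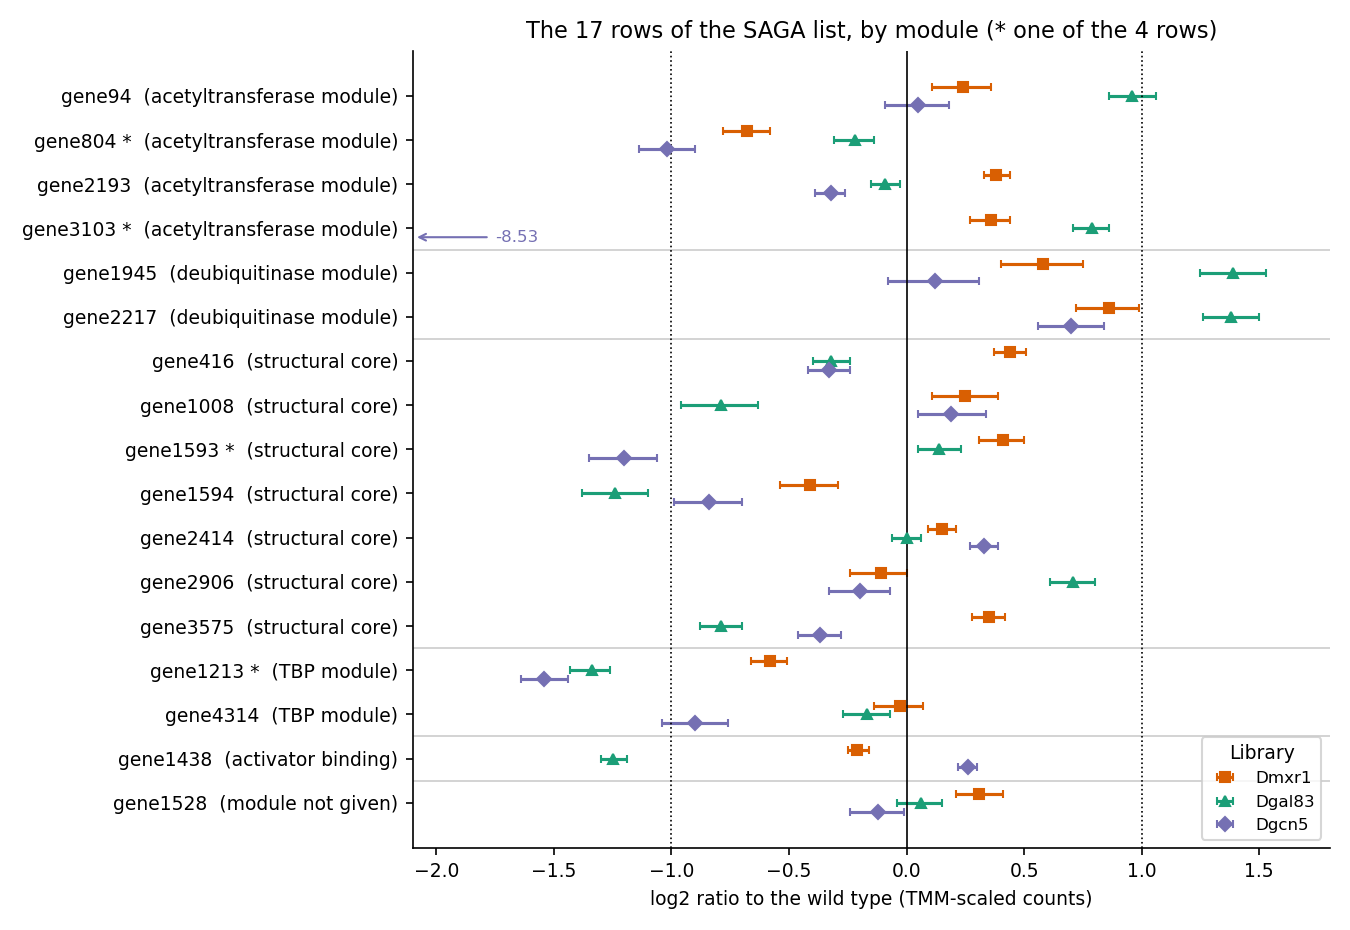
Log2 ratio to the wild type (x axis, TMM-scaled counts) of the 17 rows of the SAGA list, grouped by module on the y axis, with 95% counting intervals. Asterisks mark the 4 rows, dotted lines mark 2-fold, and Gcn5 in its deletion library is off the scale at -8.53. The 4 lower calls of the Dgcn5 library are the marked rows, which were chosen by their values there. Both deubiquitinase rows are highest in the Dgal83 library.

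Related complexes were described by the same counts, to be read against the 5.04% of all rows that were lower in the Dgcn5 library. Of 13 TFIID rows, 4 of which are also in the SAGA list, 0 were called in the Dgcn5 library and the median log2 ratio was -0.02, with a range from -0.33 to 0.35. The lowest was TFIID subunit 6 (gene416) and the highest another subunit (gene1998). Of 11 rows for histone acetyltransferases or their complexes outside SAGA, 4 of which are also among the NuA4 rows, 1 was called lower, the catalytic subunit of NuA3, which acetylates histone H3 (gene1904). It had 1856, 1875, 914 and 389 counts in the GS115, Dmxr1, Dgal83 and Dgcn5 libraries and was at -1.26 [-1.42 to -1.10] in the last. The highest was the type B catalytic subunit, which acts on free histones (gene4106), at 0.75.

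Of 7 rows of NuA4, the main histone H4 acetyltransferase complex, 0 were called in the Dgcn5 library. All 7 were below 0, from -0.98 for an Esa1p-associated factor (gene2672) to -0.19 (gene3252), with a median of -0.62, beside -0.01 for all rows. Rows already in the SAGA list, such as gene1438 at 0.26, were not taken here, so a subunit of both complexes would be missing. Of 17 rows for histone deacetylases and their complexes, the enzymes that reverse acetylation, 1 was called lower there, a SIR2 family row likened to HST2 (gene1156) at -1.04 [-1.14 to -0.94]. That row was at -1.73 and -0.94 in the Dmxr1 and Dgal83 libraries. The highest of the 17 was the defining member of the SET3 complex (gene31) at 0.73, and the median was -0.17.

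The rows numbered around each of the 4 were read for their own ratios. The table holds no coordinates, so the distance between rows and any overlap are not known. Next to Gcn5, the row before it (gene3102, an N-terminal nucleophile aminohydrolase) had 8518 counts in GS115 and 4378 in the Dgcn5 library, a log2 ratio of 0.03 [-0.02 to 0.08]. The row after it (gene3104, a phosphatidylserine decarboxylase) had 5256 and 2958, a ratio of 0.16 [0.10 to 0.23]. Of the rows 2 away, gene3101 was at 0.16 and gene3105, a 6-phosphogluconolactonase, at 0.39. Of the 10 rows within 5 of gene3103, 0 were called in the Dgcn5 library, where 5.04% of all rows were lower and 4.06% higher. The log2 ratios of the 10 ran from -0.69 to 0.39 with a median of 0.11.

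In the Dgal83 library, where Gcn5 was 1.72-fold above the wild type, the 4 nearest rows were above the wild type too. There gene3102 was at 1.02 [0.98 to 1.06], gene3101 at 0.73, gene3104 at 0.42 and gene3105 at 0.22. The rows 3 away, gene3100 and gene3106, were at -0.00 and -0.11. Over all 10 rows the range was from -0.33 to 1.02, with a median of 0.21. The 1 row called was gene3102, where 11% of all rows were higher and 10.7% lower.

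The 2 rows directly after gene1213 were called lower in the Dgcn5 library. gene1214, a P-loop nucleoside triphosphate hydrolase, had 9341 counts in GS115 and 2164 in the Dgcn5 library, a log2 ratio of -1.12 [-1.19 to -1.05]. gene1215, a C-5 sterol desaturase of ergosterol synthesis, had 58757 and 13460 and was at -1.13. It lies outside the rule for naming rows and was chosen after its values were seen. The row before, gene1212, a TBC1 domain row, was at -0.37. Of the 10 rows within 5 of gene1213, 2 were lower, where 5.04% of all rows were, 0 higher and 8 below 0, with a range from -1.13 to 0.20 and a median of -0.41. In the Dgal83 library, where gene1213 was also called lower, 1 of the 10 was lower, where 10.7% of all rows were, and 9 were below 0, with a median of -0.56.

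Around gene804 and gene1593 no row within 5 was called in the Dgcn5 library, 0 of 10 in each case. Of all rows, 5.04% were lower there and 4.06% higher. The RNA-binding row before gene804 (gene803) was at -0.54 [-0.62 to -0.46] and the ribosomal protein L2 row after it (gene805) at -0.04. Before gene1593, a row named laminin subunit gamma-1 (gene1592) was at -0.86 [-1.12 to -0.61] from 601 and 166 counts. No directly adjacent row had counts within 5% of those of any of the 4 rows in every library, as rows counted from the same reads would have. Rows that share only part of their reads would not be seen in this way.

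**Figure D4:**
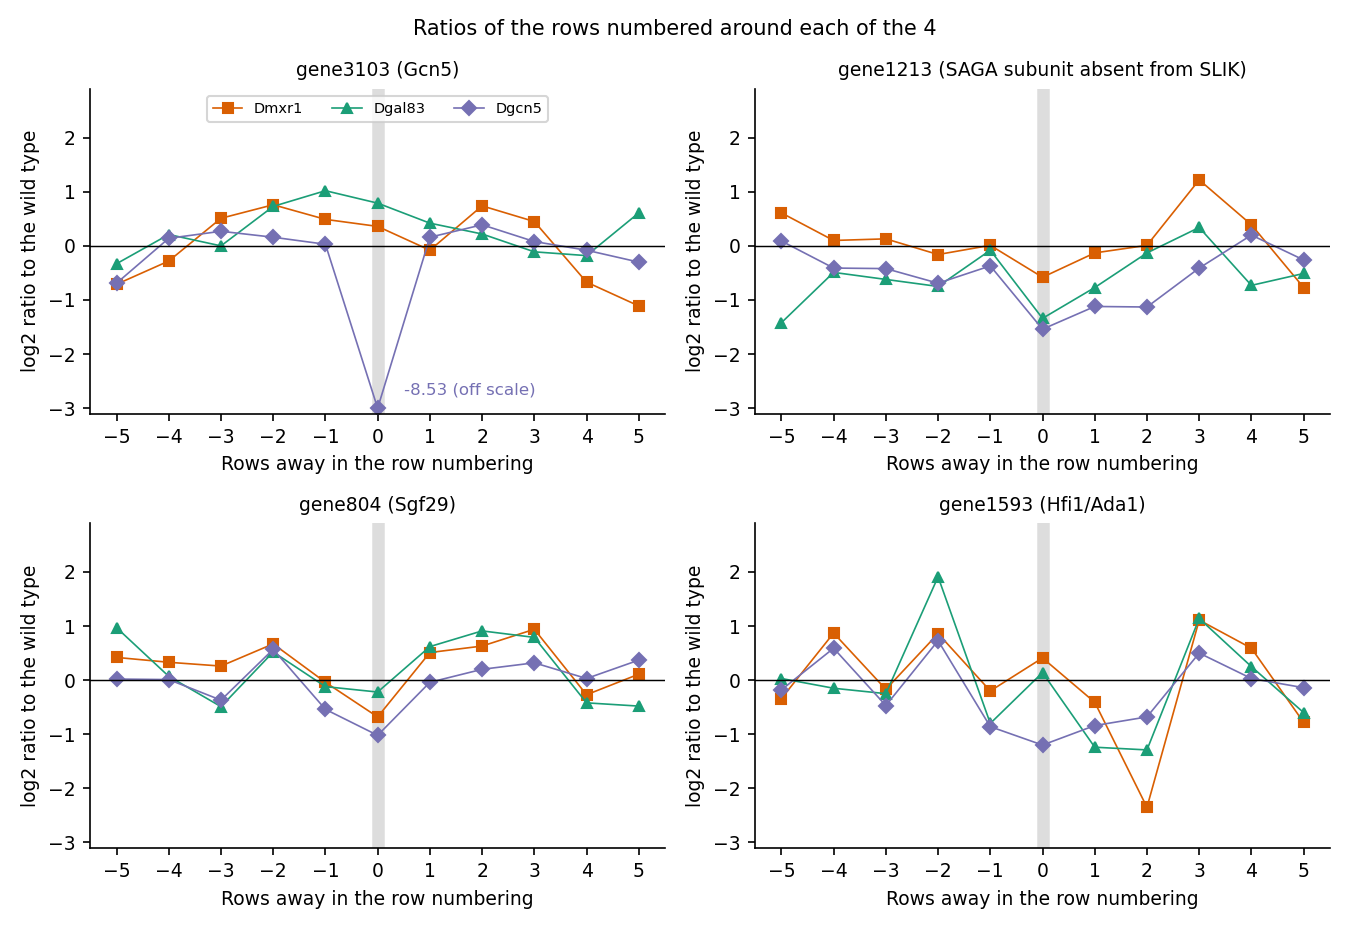
Log2 ratio to the wild type (y axis) of the rows within 5 of each of the 4 rows in the table's numbering (x axis, 0 is the row itself), for the 3 deletion libraries. The Dgcn5 value of gene3103, -8.53, is off the scale. Its neighbours range from -0.69 to 0.39 in that library, and gene1214 and gene1215, after gene1213, are at -1.12 and -1.13.

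The rows most like each of the 4 were found by the distance between their 3 log2 ratios to the wild type, over 4 libraries. The nearest described row to gene804 was PUF2 (gene4561), of a family of RNA-binding proteins, at a distance of 0.085 log2 units, with ratios of -0.61, -0.23 and -0.97 in the Dmxr1, Dgal83 and Dgcn5 libraries. The next were a predicted protein (gene4562) at 0.128 and a subunit of both NuA4 and the SWR1 chromatin remodeler (gene5006) at 0.142, and 8 rows in all lay within 0.2.

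For gene1593 the nearest were a conserved predicted protein (gene5054) at 0.179, the peroxisomal membrane protein PEX17 (gene4720) at 0.189, and a row like aspartate aminotransferases (gene2303) at 0.335. For gene1213 they were a potential peroxisomal adenine nucleotide transporter (gene5038) at 0.343, coproporphyrinogen III oxidase of heme synthesis (gene3313) at 0.368, and a conserved predicted protein (gene1091) at 0.372. Gcn5 had no near neighbour: the closest row, a protein of Vid vesicles (gene5373), was 5.81 away, then gene4360 at 6.01 and the proline permease gene2332 at 6.07.

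The 3 subunits lay farther from one another than from the nearest rows named above. Those were picked as the closest described rows of 5419, so nothing is read from that. The distance from gene804 to gene1593 was 1.16. This ranked gene804 at 765 of 5419 rows by nearness to gene1593, and gene1593 at 1238 by nearness to gene804. From gene804 to gene1213 it was 1.24, with gene804 at 282 by nearness to gene1213 and gene1213 at 1473 by nearness to gene804. From gene1593 to gene1213 it was 1.81, with gene1593 at 1247 by nearness to gene1213 and gene1213 at 3465 by nearness to gene1593. Each distance includes the Dgcn5 ratio. The 3 subunits shared a level in the Dgcn5 library below that of the wild type, which chose them, and differed in the order of the other libraries.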

How the data were processed

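RNA from 4 Pichia pastoris strains, 1 library each, was depleted of ribosomal RNA with a bacterial kit and sequenced, per the labels' protocols, which name no strandedness. The submitters' processing notes list featureCounts 1.6.4, Bowtie2, DESeq2, fastp 0.19.6 and bcl2fastq 2.19.0.316. The genome build is not given in the sources used here. What the authors deposited are raw read counts per feature with no normalization. Names are the table's descriptions, since 0 locus tags and 0 protein accessions matched the reference gene table.

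A mean of at least 20 counts was required, which removed 7 rows. Libraries were scaled by TMM in edgeR 4.0.16 (R 4.3.3), with factors of 1.1, 0.862, 1.207 and 0.874 for the GS115, Dmxr1, Dgal83 and Dgcn5 libraries. Ratios used 0.5 added to each count. Intervals for ratios were exact Clopper-Pearson at 95%. Reads carry no stated molecular identifiers, so intervals may be too narrow. Python 3.11.15 and scipy 1.17.1 were used.

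The rows and lists were chosen with earlier results of these data known, and the list patterns were corrected after the descriptions were read. Named were the 4 rows, the SAGA list, called and extreme rows of the other lists, adjacent rows, and the 3 nearest described rows. The alternatives were scaling by total counts, by upper quartiles, by size factors of DESeq2 1.42.0 or without the 20 highest rows, other filters, an added count of 5, and calls at 1.5-fold.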

Additional observations from a re-analysis of the deposited data

How the results depend on the processing

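No paired analysis was possible because each strain has 1 library, and leaving out a library was not possible for the same reason. All 4 rows were called lower in the Dgcn5 library under each of the 8 alternatives. Since this contrast chose the rows, the repeat of these calls supports nothing. The share of all rows called lower there ran from 4.87% with 5 added to each count to 13.5% with the 1.5-fold rule. Over the 7 alternatives that give a ratio, the log2 ratio ran from -1.87 to -1.53 for gene1213 and from -1.53 to -1.19 for gene1593. It ran from -1.35 to -1.01 for gene804 and from -8.86 to -7.34 for Gcn5. Total counts gave all rows a median of -0.36 in Dmxr1, 0.14 in Dgal83 and -0.34 in Dgcn5, and with them 1 of the 4 rows and 1 of the 17 SAGA rows were called in the Dmxr1 library in place of 0, both times gene804, where 18.9% of all rows were lower. Of all calls in the Dgcn5 library, 588 were then lower and 111 higher, in place of 273 and 220. A 1.5-fold rule called 1 of 4 and 2 of 17 rows in the Dmxr1 library, 2 of 4 and 10 of 17 in the Dgal83 library, and 7 of 17 in the Dgcn5 library, where it called 40.6%, 44.4% and 26.1% of all rows. The 7 include the 4 chosen rows, so nothing is read from that count. No called ratio changed sign. Of 357 ratios under alternatives, 296 stayed inside the counting interval and 61 moved outside it. With 1 library per strain no value has a replicate check, and depth also limits the ratio of Gcn5, which rests on 3 counts, and the side of the 2-fold limit on which gene804 lies.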
